A study of Sus scrofa with 6 samples.

Results

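The translation initiation factors of the pig oocyte were taken as all genes whose pig symbol begins with EIF followed by a number from 1 to 6, leaving out the eIF2 kinases (symbols beginning with EIF2AK). The files listed 41 such genes among 19300, and 38 of them had a mean of at least 1 FPKM (mapped fragments scaled to transcript length and to the depth of the library) over the 6 oocytes. The groups were 3 BCB-positive and 3 BCB-negative pig oocytes at the germinal vesicle stage, the arrested stage before meiosis resumes, and each library was 1 oocyte. BCB is brilliant cresyl blue, a dye that growing oocytes reduce to a colourless form, so oocytes that keep the colour (BCB-positive) are generally taken as fully grown and those that lose it (BCB-negative) as still growing. In both classes the oocytes came from antral follicles of 3 to 6 mm, carried at least 3 layers of cumulus cells, were not cultured for maturation, and had their cumulus and zona pellucida removed before being lysed. The labels give no animal, breed or age. A class was therefore treated as a single sample represented by 3 cells, and differences between classes are described without a test.

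Initiation factors bring the initiator tRNA, the small ribosomal subunit and the capped mRNA together. eIF1, eIF1A, eIF2, eIF3 and eIF5 form the complex that scans for the start codon, eIF2B recharges eIF2 with GTP, and eIF4F (the cap-binding eIF4E, the scaffold eIF4G and the helicase eIF4A) selects the mRNA. A full-grown oocyte stores many mRNAs in a silent form, and proteins that hold eIF4E away from eIF4G are part of that storage in frog and mouse oocytes.

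Expected read counts summed to between 7820374 and 9238987 in BCB-positive oocytes and to between 7122749 and 7668881 in BCB-negative oocytes. BCB-positive oocyte 3 stood apart, with a mean correlation across genes of 0.874 with the other oocytes, against 0.905 to 0.915 for each of the rest. That oocyte also listed the most genes, 16141 against 14071 to 15297. Its summed FPKM was the lowest, 668430 against 784781 to 811744. Of 15 oocyte markers, 13 were listed and 12 averaged at least 1 FPKM, from ZP3 at the top to NLRP5 at the bottom. The summed level of those listed was 17947 to 33990 FPKM in BCB-positive and 29084.5 to 38017 FPKM in BCB-negative oocytes. It was lowest in BCB-positive oocyte 3. ZP3 was at 5602 to 14619 FPKM in BCB-positive and at 8266 to 18993 FPKM in BCB-negative oocytes, whereas NLRP5 was at 0.32 to 2.11 FPKM in BCB-positive and at 0 to 1.62 FPKM in BCB-negative oocytes. DAZL was also low, at 2.64 to 4.79 FPKM in BCB-positive and 1.29 to 3.66 FPKM in BCB-negative oocytes, and NOBOX stayed under 1 FPKM throughout. Of 20 markers of cumulus and granulosa cells, 13 were listed in at least 1 oocyte and 3 reached a mean of 1 FPKM. The summed level of those listed was 39.9 to 52.4 FPKM in BCB-positive and 35.7 to 47.7 FPKM in BCB-negative oocytes. Most of it came from INHBA and FST. INHBA was at 26.1 to 31.9 FPKM in BCB-positive and 19.8 to 30.0 FPKM in BCB-negative oocytes. FST was at 8.89 to 15.0 FPKM in BCB-positive and 10.8 to 16.0 FPKM in BCB-negative oocytes. CYP19A1 was at most 0.18 FPKM. STAR, of the same list, was ordered higher in BCB-positive oocytes. It was at 1.56, 1.79 and 0.40 FPKM in BCB-positive and 0.05, 0.37 and 0.16 FPKM in BCB-negative oocytes. Its mean was under 1 FPKM, so it was not among the genes compared. CD3E, a T cell marker of the blood and immune list, was also ordered. It was at 4.54, 4.60 and 2.37 FPKM in BCB-positive and 0.90, 0.11 and 1.19 FPKM in BCB-negative oocytes. The others listed overlapped between classes. In mean log2(FPKM + 1), CD79A and PTPRC differed by 0.66 and 0.21, and CD14 and CSF1R by -0.58 and -0.51. PTPRC was found in BCB-positive oocyte 3 alone, at 0.56 FPKM. TAGLN, of theca and stroma, and TEK, of endothelium, reached 57.9 and 20.4 FPKM and also overlapped. The part of any such RNA in the values that follow was not tested. FPKM is relative to each library, so a change in total RNA per oocyte is not seen.

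Among the initiation factors, 6 of the 38 compared were higher in BCB-positive oocytes and 0 were lower. They were EIF2A, EIF2B1, EIF2B2, EIF3E, EIF3M and EIF4B. A gene was counted where all 3 oocytes of one class lay above all 3 of the other (called ordered here) and the classes differed by at least 1.5-fold on the log2(FPKM + 1) scale, which understates the differences of low genes. Over all 11495 genes compared, 5.75% met this rule as higher in BCB-positive oocytes and 2.66% as lower. Of the factors 15.8% were higher, and with no test this is a description of these 6 cells. Without BCB-positive oocyte 3 the count was 5 higher and 0 lower, against 7.19% and 4.4% of all genes, with fewer oocytes to order. Leaving out an oocyte cannot undo an existing order, so those 5 passed anew on size alone, and the one lost was EIF2B1.

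**Figure D1:**
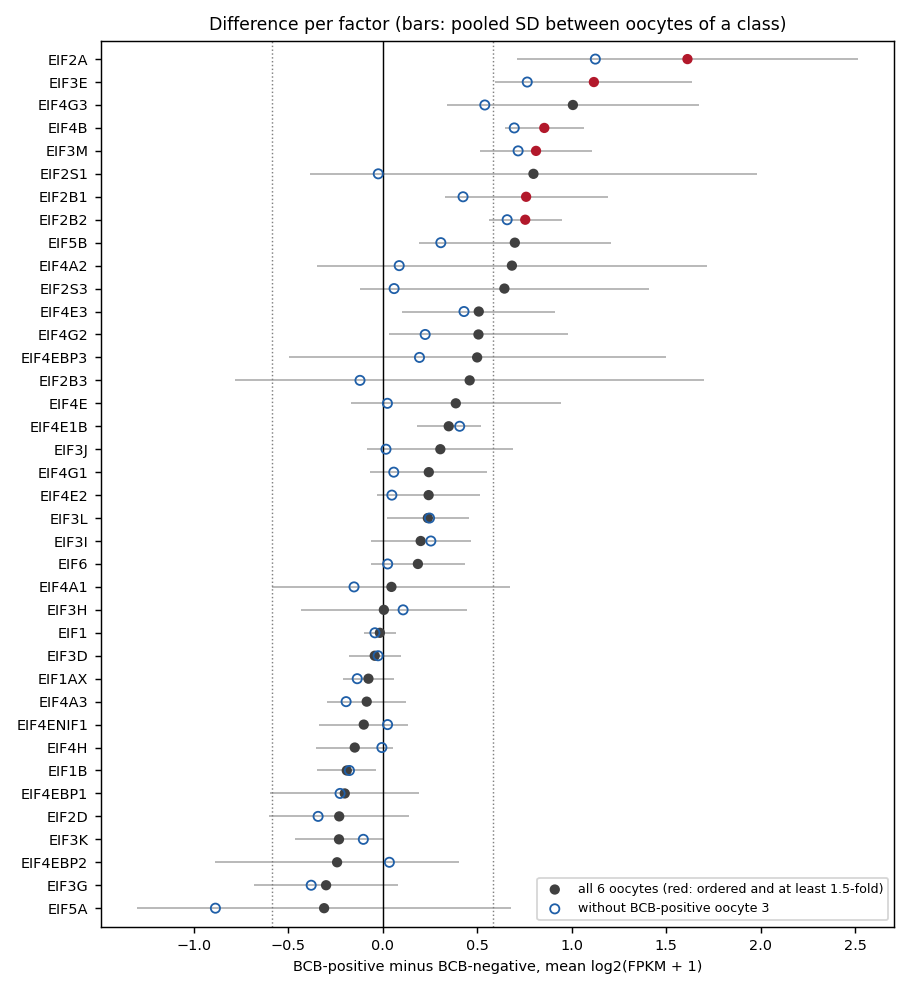
Difference between BCB-positive and BCB-negative oocytes in mean log2(FPKM + 1) for the 38 factors compared, with bars for the pooled within-class SD and dotted lines at 1.5-fold. Red points mark the 6 factors higher by the rule, and open circles give the difference without BCB-positive oocyte 3, which gives -0.02 in place of 0.80 for EIF2S1 and 0.70 in place of 0.85 for EIF4B.

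The median difference of the 38 factors was 0.24, against 0.11 for all genes, and 25 of 38 differences were above 0, against 58% of all genes. Without BCB-positive oocyte 3 the medians were 0.04 and 0.05. That oocyte held the highest value of 20 of the 38 factors, or 52.6%, against 32.6% of all genes. The factors took 0.781%, 0.909% and 1.06% of the counts in BCB-positive oocytes 1, 2 and 3, and 0.826%, 0.78% and 0.702% in BCB-negative oocytes 1, 2 and 3. What sets BCB-positive oocyte 3 apart was not tested.

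The factors were abundant as a group. Their median level was 50.6 FPKM, against 8.98 FPKM for all genes compared, and 14 of the 38 stood above percentile 90 of those genes. EIF1, EIF1B and EIF3M had the highest means, while the 3 factors below a mean of 1 FPKM were EIF1AD, EIF2B5 and EIF3A. Level and transcript length were weakly and inversely related across the factors, with a Spearman correlation of -0.22 across 38 genes, which share the same libraries and are not independent, against -0.12 across all genes.

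**Figure D2:**
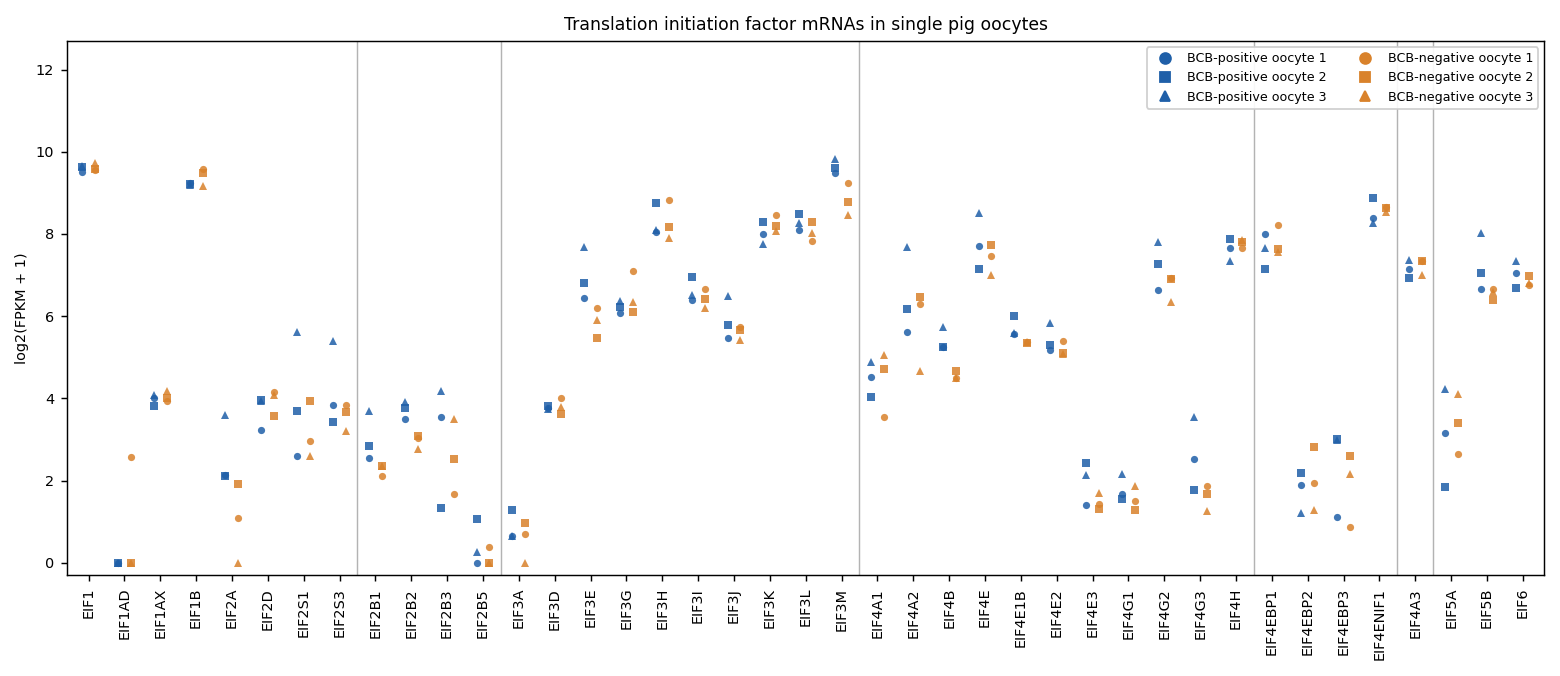
Level of each of the 41 factors in each oocyte as log2(FPKM + 1), with BCB-positive oocytes left of BCB-negative oocytes and vertical lines between roles (start codon selection and initiator tRNA, eIF2B, eIF3, eIF4, eIF4E-binding repressors, the exon junction factor EIF4A3, and later steps). EIF1, EIF1B and EIF3M are the highest in every oocyte except BCB-negative oocyte 3, where EIF4ENIF1 lies above EIF3M, and the blue triangles that stand high for EIF2S1, EIF2S3, EIF4A2, EIF4G3, EIF5B and EIF4E belong to BCB-positive oocyte 3.

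In the group that selects the start codon and brings the initiator tRNA, 1 of 7 factors compared was higher in BCB-positive oocytes. The counts of this and each later role stand beside 5.75% of all genes higher and 2.66% lower by the rule. EIF1, which guards start codon choice, was the most abundant of the 38 factors, at 731, 788 and 802 FPKM in BCB-positive and 746, 759 and 842 FPKM in BCB-negative oocytes. The classes overlapped, with a difference of -0.02 (SD 0.08). EIF1B, a close relative, was at 602, 596 and 582 FPKM in BCB-positive and 767, 708 and 571 FPKM in BCB-negative oocytes, so that BCB-negative oocyte 3 lay below all BCB-positive oocytes. Reads could be split between such relatives by the authors' counting, so the single values of EIF1 and EIF1B are uncertain. Their sum was 1333, 1384 and 1384 FPKM in BCB-positive and 1513, 1467 and 1414 FPKM in BCB-negative oocytes. On this scale the sum was ordered lower in BCB-positive oocytes but far under 1.5-fold, with a difference of -0.10 (SD 0.04). A difference this small depends on the scaling between oocytes. With size factors EIF1 differed by -0.12 and EIF1B by -0.29. With every library at a common sum of FPKM, EIF1 differed by 0.08 and EIF1B by -0.10. EIF1AX, the X-linked eIF1A that promotes scanning, was steady, at 13.0 to 16.0 FPKM in BCB-positive and 14.3 to 17.2 FPKM in BCB-negative oocytes.

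EIF2A had the largest difference of the 38 factors compared. It can bring initiator tRNA to the ribosome independently of eIF2. EIF2A stood at 3.42, 3.30 and 11.01 FPKM in BCB-positive and 1.12, 2.77 and 0 FPKM in BCB-negative oocytes. The classes did not overlap and differed by 1.61 (SD 0.90), but BCB-positive oocyte 2 and BCB-negative oocyte 2 were close together. The difference was 1.12 without BCB-positive oocyte 3. The summed counts were 221 in BCB-positive oocytes (exact Poisson 95% interval 193 to 252) and 42 in BCB-negative oocytes (30.3 to 56.8). Such intervals cover counting error alone, and PCR copies of a molecule are counted as separate reads. The 0 in BCB-negative oocyte 3 allows up to 0.285 FPKM, the level of 3 counts.

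The eIF2 subunits were high in BCB-positive oocyte 3 alone. EIF2S1, the alpha subunit whose phosphorylation slows initiation, was at 5.03, 11.9 and 47.6 FPKM in BCB-positive and 6.83, 14.3 and 5.02 FPKM in BCB-negative oocytes. EIF2S3, the gamma subunit that binds the tRNA, was at 13.4, 9.69 and 40.8 FPKM in BCB-positive and 13.4, 11.7 and 8.27 FPKM in BCB-negative oocytes. The other BCB-positive oocytes lay within the range of BCB-negative oocytes for EIF2S1 and within or at the edge of it for EIF2S3. Without BCB-positive oocyte 3 the differences of EIF2S1 and EIF2S3 were -0.02 and 0.06, against 0.80 and 0.64 with it. EIF2S3 overlaps KLHL15 in the pig annotation (build Sscrofa11.1, not the build behind the counts) and is uncertain for that reason. KLHL15 was ordered higher in BCB-positive oocytes, by 0.54, at 3.94, 4.80 and 3.23 FPKM in BCB-positive and 2.46, 2.86 and 1.98 FPKM in BCB-negative oocytes. The beta subunit EIF2S2 was listed under a gene ID that did not carry its symbol and matched by transcript accession with the version set aside, so it is not counted among the 41. EIF2S2 was at 68.6, 55.2 and 158 FPKM in BCB-positive and 54.5, 59.5 and 53.5 FPKM in BCB-negative oocytes, again highest in BCB-positive oocyte 3. EIF2D, which acts in non-canonical initiation and ribosome recycling, overlapped between classes, at 8.36 to 14.7 FPKM in BCB-positive and 10.9 to 16.8 FPKM in BCB-negative oocytes. EIF1AD, which carries an eIF1A-like domain, was listed in BCB-negative oocyte 1 at 4.92 FPKM and in no other oocyte, which allows at most 0.134 FPKM in each of those. It overlaps BANF1, a far more abundant gene at 157 to 242 FPKM in BCB-positive and 232 to 254 FPKM in BCB-negative oocytes, so the EIF1AD value is uncertain.

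eIF2B, the exchange factor that reloads eIF2 with GTP, had 2 of 3 compared subunits higher in BCB-positive oocytes. EIF2B2, the beta subunit and the most abundant one, was at 10.3, 12.55 and 14.1 FPKM in BCB-positive and 7.26, 7.49 and 5.84 FPKM in BCB-negative oocytes. The classes were clear of each other, by 0.75 (SD 0.19). Without BCB-positive oocyte 3 the difference was 0.66. EIF2B2 overlaps ACYP1 in the same Sscrofa11.1 annotation, so its value is uncertain. ACYP1 itself did not share the pattern, at 95.3, 91.2 and 51.5 FPKM in BCB-positive and 94.2, 82.8 and 71.0 FPKM in BCB-negative oocytes. The same limit holds for other factors that overlap an annotated gene, namely EIF1B, EIF2B3, EIF3G, EIF4A2, EIF4E3, EIF4EBP2 and EIF5B. EIF2B1, the alpha subunit that senses phosphorylated eIF2, was at 4.90, 6.14 and 11.99 FPKM in BCB-positive and 3.33, 4.13 and 4.09 FPKM in BCB-negative oocytes. Its difference was 0.76 (SD 0.43). Without BCB-positive oocyte 3 it was 0.42, which is under 1.5-fold. EIF2B3, the gamma subunit, varied without regard to class, at 10.7, 1.52 and 17.2 FPKM in BCB-positive and 2.18, 4.78 and 10.25 FPKM in BCB-negative oocytes. EIF2B5, the catalytic epsilon subunit, averaged 0.427 ± 0.582 FPKM in BCB-positive and 0.103 ± 0.179 FPKM in BCB-negative oocytes (SD, n = 3 each), with 18 and 4 counts, and was under the limit for comparison.

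eIF3, the largest initiation factor, binds the small subunit and is built from an octamer of PCI and MPN subunits with further subunits attached. Of the 10 subunits in the files 9 were compared, and 2 were higher in BCB-positive oocytes, both from the octamer. EIF3M was the most abundant subunit, at 718, 773 and 908 FPKM in BCB-positive and 600.1, 438 and 354 FPKM in BCB-negative oocytes. Each BCB-positive oocyte exceeded each BCB-negative oocyte, by 0.81 (SD 0.30). With BCB-positive oocyte 3 left out, EIF3M differed by 0.72. The summed counts of EIF3M were 31029 in BCB-positive (exact Poisson 95% interval 30685 to 31376) and 15873 in BCB-negative oocytes (15627 to 16122), intervals that cover the counting of amplified reads and not the number of molecules in a cell.

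EIF3E, another PCI subunit, was at 85.6, 111 and 204 FPKM in BCB-positive and 72.4, 43.1 and 58.9 FPKM in BCB-negative oocytes. EIF3E differed by 1.12 (SD 0.52), or 0.76 when BCB-positive oocyte 3 was left out. The remaining octamer subunits compared did not follow. EIF3K was at 254, 309.6 and 214 FPKM in BCB-positive and 349.8, 292 and 267 FPKM in BCB-negative oocytes. EIF3H and EIF3L also overlapped, with differences of 0.01 (SD 0.44) and 0.24 (SD 0.22). The ratio of EIF3M to EIF3K within an oocyte, chosen after the values were seen, was 2.83, 2.498 and 4.24 in BCB-positive and 1.72, 1.5 and 1.33 in BCB-negative oocytes. Since each ratio is taken within 1 library, it does not depend on the scaling between oocytes. The ratio of EIF3M to EIF3L overlapped between classes, at 2.17 to 2.96 in BCB-positive and 1.38 to 2.66 in BCB-negative oocytes.

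**Figure D3:**
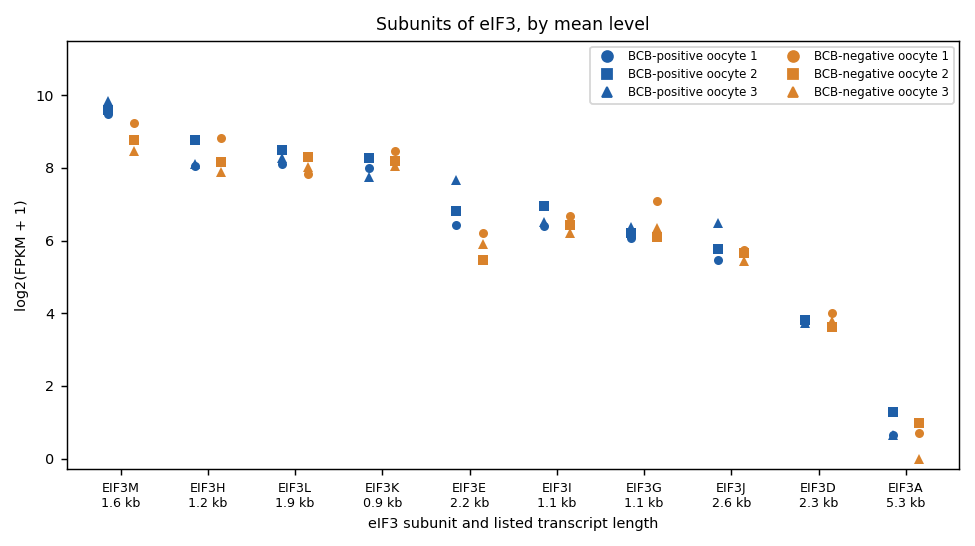
Level of the 10 eIF3 subunits in each oocyte as log2(FPKM + 1), ordered by mean level, with BCB-positive oocytes left of BCB-negative oocytes and the listed transcript length in kilobases under each name. The classes are clear of each other for EIF3M and EIF3E, and EIF3A, with the longest transcript, is lowest.

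The subunits outside the octamer overlapped between classes. EIF3G and EIF3I, which sit with EIF3B near the mRNA channel, differed by -0.30 (SD 0.38) and 0.20 (SD 0.26), and EIF3G was highest in BCB-negative oocyte 1, at 136 FPKM. EIF3D, a subunit that can bind the cap, had the narrowest spread over the 6 oocytes of the 9 subunits compared, at 12.5, 13.1 and 12.3 FPKM in BCB-positive and 15.1, 11.4 and 12.8 FPKM in BCB-negative oocytes. EIF3J, a loosely bound subunit, differed by 0.30 (SD 0.39), of which 0.02 was left without BCB-positive oocyte 3. Within the octamer, EIF3A, its scaffold, was under the limit for comparison and averaged 0.853 ± 0.491 FPKM in BCB-positive and 0.533 ± 0.492 FPKM in BCB-negative oocytes (SD, n = 3 each). Mean levels of the subunits thus ran from 0.693 FPKM for EIF3A, whose transcript is listed at 5307 bases, to 632 FPKM for EIF3M, at 1586 bases. cDNA was primed from the poly(A) tail, and the part of transcript length in these levels was not tested.

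Among the 11 factors of cap binding and scanning, 1 was higher in BCB-positive oocytes by the rule. Differences were above 0 for 10 of the 11, against 58% of all genes. The median of the 11 was 0.39, and 0.09 without BCB-positive oocyte 3. EIF4B, which stimulates the eIF4A helicase, was at 37.3, 36.7 and 51.9 FPKM in BCB-positive and 21.5, 24.6 and 21.4 FPKM in BCB-negative oocytes. The classes were well apart, by 0.85 (SD 0.21), and still by 0.70 when BCB-positive oocyte 3 was left out. EIF4H, a shorter relative of EIF4B and the most abundant factor of this group by a narrow margin, overlapped at 201, 235 and 161 FPKM in BCB-positive and 202, 221 and 232 FPKM in BCB-negative oocytes.

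The helicases EIF4A1 and EIF4A2 are closely related, and reads could be split between them. EIF4A2 was at 48.0, 71.5 and 205 FPKM in BCB-positive and 77.0, 88.1 and 24.4 FPKM in BCB-negative oocytes. The sum of EIF4A1 and EIF4A2 was 70.1, 86.9 and 233 FPKM in BCB-positive and 87.7, 113 and 56.5 FPKM in BCB-negative oocytes, so the classes overlapped with or without a split. Of the scaffolds, EIF4G2, which lacks the eIF4E-binding site of its relatives, was at 98.1, 154 and 222 FPKM in BCB-positive and 121, 118 and 80.9 FPKM in BCB-negative oocytes. EIF4G1, the main scaffold of eIF4F, was at most 3.48 FPKM in any oocyte, and EIF4G2 exceeded it 44.8- to 80.4-fold in BCB-positive and 30.8- to 81.9-fold in BCB-negative oocytes on the FPKM scale. EIF4G1 is listed at 5257 bases and EIF4G2 at 4183 bases. EIF4G3 was at 4.71, 2.41 and 10.6 FPKM in BCB-positive and 2.63, 2.21 and 1.40 FPKM in BCB-negative oocytes, overlapping through BCB-positive oocyte 2.

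EIF4E1B, an oocyte-enriched relative of eIF4E known from frog and mouse oocytes, was ordered but under 1.5-fold. It was at 46.1, 62.6 and 47.5 FPKM in BCB-positive and 40.3, 39.9 and 40.6 FPKM in BCB-negative oocytes. The BCB-negative oocytes were almost equal and all lay below the BCB-positive ones, by 0.35 (SD 0.17), or 0.41 when BCB-positive oocyte 3 was left out. Any-size ordering was met by 7 factors as higher and 0 as lower in BCB-positive oocytes, against 7.44% and 4.03% of all genes. EIF4E, the general cap-binding protein, was at 208, 139.7 and 363 FPKM in BCB-positive and 176, 212 and 126 FPKM in BCB-negative oocytes, with no order between classes. EIF4E2, which binds the cap without eIF4G, was at 35.3, 38.2 and 55.6 FPKM in BCB-positive and 41.0, 33.4 and 32.8 FPKM in BCB-negative oocytes. EIF4E3 was low, at 1.63, 4.39 and 3.43 FPKM in BCB-positive and 1.71, 1.48 and 2.25 FPKM in BCB-negative oocytes, and its listed transcript of 685 bases is among the shortest of those compared. EIF4E made up 57.0% to 77.3% of the family's summed FPKM in BCB-positive and 62.5% to 74.0% in BCB-negative oocytes, and EIF4E1B 10.1% to 25.6% and 13.9% to 20.1%.

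Of the 4 repressors that bind eIF4E, 0 were ordered in either direction. EIF4ENIF1 (4E-T), which ties eIF4E to stored and decaying mRNA, was the most abundant, at 335, 469 and 305 FPKM in BCB-positive and 405, 396 and 368 FPKM in BCB-negative oocytes. EIF4EBP1, whose hold on eIF4E is released by mTOR phosphorylation, was at 255, 141 and 199 FPKM in BCB-positive and 294, 196 and 188 FPKM in BCB-negative oocytes. The relatives EIF4EBP2 and EIF4EBP3 were far lower, at 2.73, 3.56 and 1.32 FPKM for the first and at 1.18, 7.09 and 6.92 FPKM among BCB-positive oocytes. In BCB-negative oocytes EIF4EBP2 was at 2.83, 6.01 and 1.43 FPKM and EIF4EBP3 at 0.82, 5.08 and 3.47 FPKM, so neither separated the classes. EIF4ENIF1 exceeded EIF4E1B 7.27-, 7.48- and 6.41-fold in BCB-positive and 10.0-, 9.92- and 9.06-fold in BCB-negative oocytes, a ratio chosen after the values were seen. The classes did not overlap in this ratio, but EIF4E1B by itself was already ordered, so the ratio is not a separate result. EIF4ENIF1 by itself overlapped. Against EIF4E the classes overlapped, with EIF4ENIF1 at 0.839 to 3.36 times EIF4E in BCB-positive and 1.86 to 2.92 times in BCB-negative oocytes. EIF4EBP1 was at 0.549 to 1.22 times EIF4E in BCB-positive and 0.925 to 1.67 times in BCB-negative oocytes, again overlapping.

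**Figure D4:**
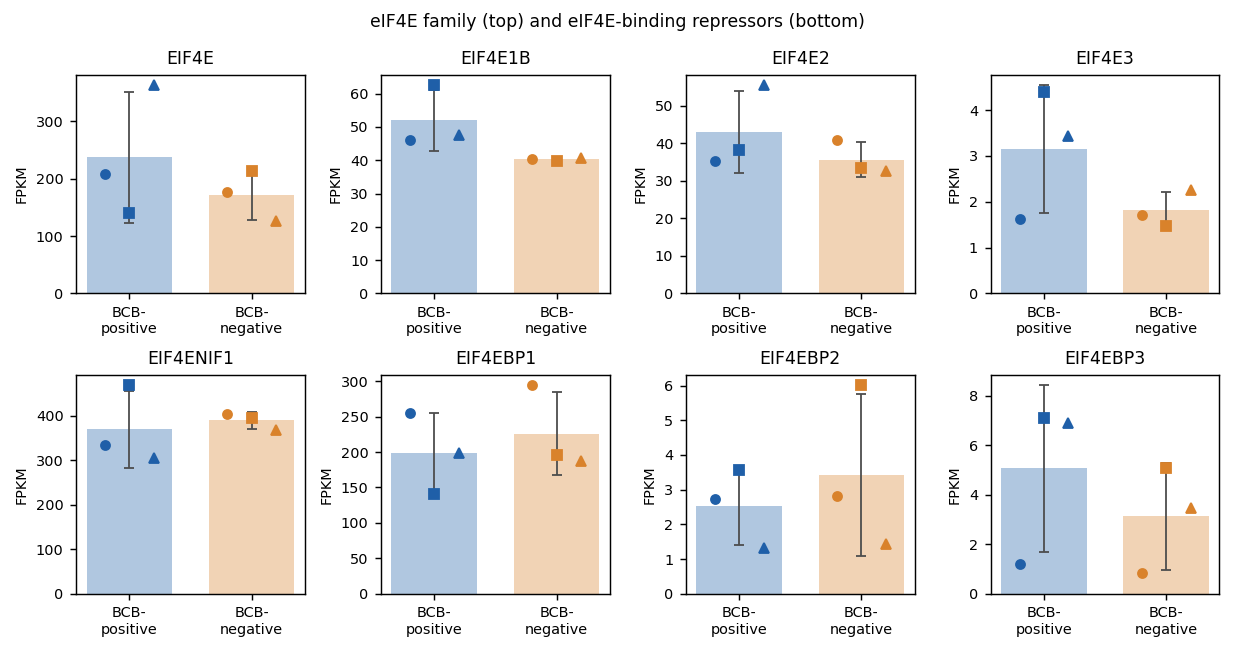
FPKM of the eIF4E family (top row) and of the eIF4E-binding repressors (bottom row), with each oocyte as a point (circle, square and triangle for oocytes 1, 2 and 3 of a class), class means as bars and the SD over 3 oocytes as error bars, BCB-positive left of BCB-negative. EIF4E1B is the one panel in which all BCB-positive points lie above all BCB-negative points.

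EIF4A3, a core protein of the exon junction complex rather than an initiation helicase, was at 139.9, 121 and 163 FPKM in BCB-positive and 162, 161 and 126 FPKM in BCB-negative oocytes. Of the 3 factors of later steps, 0 were ordered. EIF5B, which joins the large subunit to the small one, was at 101, 131 and 261 FPKM in BCB-positive and 101, 82.8 and 95.6 FPKM in BCB-negative oocytes. BCB-positive oocyte 1 missed the top of the BCB-negative range by a small margin (100.65 against 100.94 FPKM), and the difference of 0.70 (SD 0.51) was 0.31 without BCB-positive oocyte 3. EIF6, which keeps free large subunits from joining, differed by 0.19 (SD 0.25). EIF5A, the hypusine-bearing factor that helps ribosomes through difficult peptide bonds, had the most negative difference of the 38 compared, -0.31 (SD 0.99). EIF5A was at 7.96, 2.57 and 17.7 FPKM in BCB-positive and 5.28, 9.56 and 16.2 FPKM in BCB-negative oocytes, so the spread within each class was larger than the difference between them.

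**Figure D5:**
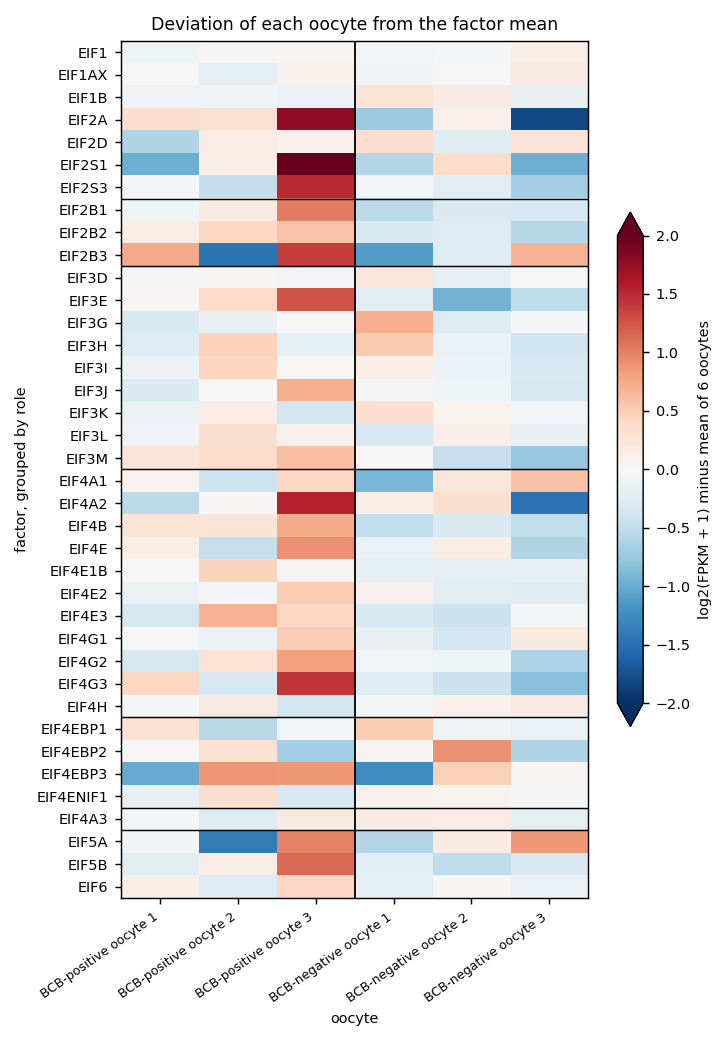
Deviation of each oocyte from the mean of the 6 oocytes in log2(FPKM + 1) for the 38 factors compared, grouped by role, with BCB-positive oocytes in the left 3 columns; red is above and blue below the mean, and the colour scale ends at 2 in each direction. BCB-positive oocyte 3 holds the highest value for 20 of 38 factors. The rows for EIF2B2, EIF3M and EIF4B are above the mean (red or pale) in all BCB-positive oocytes. In all BCB-negative oocytes these rows are at or below the mean (blue or pale).

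Transcript shares did not separate the classes at the size counted. Of 13 factors with several listed transcripts and no oocyte under 5 FPKM, 0 had a transcript share that was ordered and at least 20 percentage points apart, against 3.53% of 1956 genes. The widest gap was in EIF3L, where the transcript of 1959 bases made up 62.6%, 70.0% and 53.7% of FPKM in BCB-positive and 0.195%, 29.9% and 64.3% in BCB-negative oocytes. BCB-negative oocyte 3 lay within the BCB-positive range, and without it the gap met the rule. Shares were ordered at a smaller size in EIF4E1B and EIF4A1. The main EIF4E1B transcript, of 1428 bases, made up 98.1%, 99.6% and 99.1% in BCB-positive and 96.6%, 97.6% and 93.8% in BCB-negative oocytes. The short EIF4A1 transcript, of 1447 bases, made up 10.96%, 13.9% and 8.74% in BCB-positive and 8.20%, 2.03% and 0% in BCB-negative oocytes.

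Genes that act on these factors were read from lists of known regulators. The counts of each list stand beside 5.75% of all genes higher and 2.66% lower by the rule. Of 8 compared genes of eIF2 phosphorylation and its response, 0 were higher and 0 lower by the rule. The most abundant was ATF4, the transcription factor made when eIF2 is phosphorylated, at 131, 230.2 and 209 FPKM in BCB-positive and 247, 160.3 and 226 FPKM in BCB-negative oocytes. Of the 4 eIF2 kinases, named after their values were seen, EIF2AK2 (PKR) was the most abundant, at 48.7, 25.0 and 21.6 FPKM in BCB-positive and 22.2, 14.6 and 11.4 FPKM in BCB-negative oocytes, with a narrow overlap. The classes no longer overlapped in EIF2AK2 without BCB-positive oocyte 3, and it then differed by 1.12 and was the 1 gene of this list that met the rule as higher. EIF2AK1 and EIF2AK3 stayed under 1 FPKM in every oocyte and EIF2AK4 at or under 4.80 FPKM.

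Of 14 compared regulators of eIF4F and partners at the poly(A) tail, 1 was higher and 1 lower. PAIP1, which links poly(A)-binding protein to eIF4A and eIF3, was at 201, 272 and 594 FPKM in BCB-positive and 173, 173 and 124 FPKM in BCB-negative oocytes. The difference was 1.04 (SD 0.60). Leaving out BCB-positive oocyte 3 gave 0.59, just over 1.5-fold. PABPC1L, the poly(A)-binding protein of oocytes, was lower in BCB-positive oocytes, averaging 362 ± 98.1 FPKM in BCB-positive and 628 ± 47.6 FPKM in BCB-negative oocytes (SD, n = 3 each), a difference of -0.83 (SD 0.31). Leaving out that same oocyte gave -0.58, just under 1.5-fold, so that 0 genes of this list were then lower by the rule. Of 9 compared accessory factors, 2 were higher and 0 lower. BZW2, an eIF5-mimic protein, was at 18.1, 11.2 and 29.0 FPKM in BCB-positive and 7.11, 8.90 and 5.05 FPKM in BCB-negative oocytes, a difference of 1.28 (SD 0.53) that was 0.95 without BCB-positive oocyte 3. DOHH, which completes the hypusine of eIF5A, was low, at 2.23, 2.82 and 1.80 FPKM in BCB-positive and 0.83, 1.73 and 0.98 FPKM in BCB-negative oocytes, with BCB-positive oocyte 3 just above BCB-negative oocyte 2.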

How the data were processed

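Single oocytes were sequenced after poly(dT)-primed (24 nt) cDNA amplification, per the labels' protocols. Per the submitters' processing notes, the genome build was Sscrofa10.2 and the tools included RSEM, Cufflinks and BWA, with roles and versions not given in the sources used. The deposited expected counts are estimated reads, whole or not. The deposited FPKM values were scaled by the authors to length and depth, and a gene not listed was set to 0. Symbols came from NCBI gene IDs in a table of Sscrofa11.1. Overlaps between genes were taken from the gene positions in that table, on either strand, and not from Sscrofa10.2. Of 19300 genes 13936 matched, and the other 5364 held 8.67% to 10.2% of counts. Of 48 symbols under the naming rule, 41 were in the files, EIF2S2 is described apart, and EIF1AY, EIF2B4, EIF3B, EIF3F, EIF5 and EIF5A2 are not analysed here.

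Mean log2(FPKM + 1) of BCB-negative oocytes was subtracted from that of BCB-positive oocytes for genes averaging 1 FPKM or more, beside the pooled within-class SD (python 3.11.15, pandas 2.3.3). The factors and lists were chosen with earlier results of these data known. Values per oocyte were given for factors that met the rule, the most abundant of each role, the eIF4E family and its repressors, and the largest difference each way; others named were chosen after their values were seen. Alternatives were another pseudocount, other scalings and filters, CPM from the counts, the ratio of class means and leaving out each oocyte.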

Additional observations from a re-analysis of the deposited data

How the results depend on the processing

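The counts of 6 higher and 0 lower factors stayed within 1.5 times under the other pseudocount, scalings, filters, CPM and ratio of class means, at 5 to 7 higher and 0 lower, and the same 6 genes were called under each of these except the 5 FPKM filter, which removes EIF2A. With 1 oocyte left out the higher count ran from 5 to 10, reaching 10 without BCB-positive oocyte 1, where the share of all genes that were higher also rose, to 13.7%, and the lower count stayed at 0. The median difference ran from 0.041 without BCB-positive oocyte 3 to 0.32 without BCB-positive oocyte 1, and the factors with a shifted transcript share from 0 to 1. That 1 was EIF4E2 without BCB-negative oocyte 1 and EIF3L without BCB-negative oocyte 3. Over all genes, 661 were higher and 306 lower, 522 and 425 under size factor scaling, and 818 and 225 at a common sum. EIF2A differed by 2.86 with a pseudocount of 0.1 FPKM, since 1 oocyte is at 0. Of 488 single-factor values under alternatives, 485 moved by less than the SD between oocytes. For many settings this outcome was fixed in advance, so the count is no measure of stability. The filters leave a factor's difference unchanged, and leaving out 1 of 3 oocytes cannot move it by more than that SD. The 3 values that moved further were EIF2A with the pseudocount of 0.1 FPKM, and EIF1 under size factor scaling and at a common sum. No paired analysis was possible because the labels tie no oocyte of one class to an oocyte of the other, and the replicate numbers only name oocytes. Low counts in single oocytes limit factors such as EIF2A, EIF2B5 and EIF4EBP3.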

Other observations

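The list of elongation and termination factors had 2 of 10 compared genes higher in BCB-positive oocytes and 0 lower, against 5.75% and 2.66% of all genes. EEF1E1, a scaffold protein of the aminoacyl-tRNA synthetase complex despite its name, was at 27.6, 29.2 and 20.6 FPKM in BCB-positive and 14.9, 6.96 and 14.9 FPKM in BCB-negative oocytes. ETF1, the release factor that reads stop codons, was at 12.3, 11.8 and 20.7 FPKM in BCB-positive and 7.68, 3.60 and 9.23 FPKM in BCB-negative oocytes. The differences of EEF1E1 and ETF1 were 1.07 (SD 0.45) and 1.06 (SD 0.53), and 1.22 and 0.81 without BCB-positive oocyte 3. EEF1A1, which delivers aminoacyl-tRNA and was the most abundant of the list, overlapped at 837, 1117 and 1817 FPKM in BCB-positive and 1105, 984 and 808 FPKM in BCB-negative oocytes.

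Of the initiation factors of mitochondria, MTIF3 was at 9.0, 11.9 and 4.63 FPKM in BCB-positive and 8.01, 12.9 and 9.65 FPKM in BCB-negative oocytes, without order. MTIF2 was listed at 0.55 FPKM in BCB-positive oocyte 3 and in no other oocyte.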
